A study of Homo sapiens with 27 samples.

Results

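The 37 genes described here belong to the amino acid response: transcription factors and stress genes around ATF4 (10 genes), enzymes that make amino acids or their derivatives (6), plasma membrane amino acid transporters (8), and aminoacyl-tRNA synthetases with the tRNA exporter XPOT (13). They are the rows of the gene table that carry the listed symbols. Each name matched exactly 1 of the 57992 rows of the gene table, so all 37 were found. RNA sequencing had measured human acute myeloid leukaemia (AML) cell lines 3 days after a constitutively expressed lentiviral hairpin was delivered. The hairpins were a scramble control or 1 of 2 hairpins against CARM1 (PRMT4), which methylates arginines of histones and transcriptional coactivators. MOLM-13 and MV411 carry rearrangements of KMT2A and have no medium supplement in the labels, while SKNO1 carries RUNX1-RUNX1T1 and received 10 ng/mL GM-CSF in all of its groups. Each line had 3 scramble, 3 hairpin 1 and 3 hairpin 2 libraries, which gave 27 libraries in 9 groups. The labels call the 3 libraries of a group replicates without saying whether they came from separate cultures, so p-values measure only the spread between these libraries, which may be technical. Each line is a single cell line, and no group without any hairpin was included.

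When a cell lacks an amino acid or its endoplasmic reticulum is stressed, kinases phosphorylate the initiation factor eIF2. General translation then slows while the ATF4 mRNA is translated more. The ATF4 protein pairs with C/EBP family proteins on composite DNA elements and raises transcription of genes that import amino acids, synthesise them and attach them to tRNA. ATF4 is therefore controlled to a large extent at translation, and its mRNA is only part of its activity. Leukaemia cells depend strongly on imported amino acids, and asparagine depletion is an established treatment of acute lymphoblastic leukaemia. The lines studied here are AML.

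The C/EBP-ATF composite element is shown because it is the sequence through which ATF4 is known to act on many of these genes. Promoter windows of 300 bases, from 250 before to 50 after the transcription start, were taken from RefSeq (GRCh38.p14) and matched 31 of the 37 genes. NUPR1, GPT2, PYCR1, SLC7A11, LARS and YARS had no window in the table used. TGATGNAA was searched on both strands and was found in 10 of the 31 windows (32.3%), against 1003 of all 27305 windows of the same length (3.67%). By role it was in 6 of 11 synthetase and XPOT windows, 2 of 7 transporter windows, 1 of 4 enzyme windows and 1 of 9 windows of regulators and stress genes. The matched sites with their flanks read as follows, 5′ to 3′ on the gene's strand, with the element in capitals (as TTNCATCA where it lies on the opposite strand).
CHAC1 (chr15:40953247-40953284, + strand): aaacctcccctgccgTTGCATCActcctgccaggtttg
ASNS (chr7:97872454-97872491, - strand): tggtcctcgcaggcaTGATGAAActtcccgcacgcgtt
SLC3A2 (chr11:62881725-62881748, + strand): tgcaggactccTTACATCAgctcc
SLC7A1 (chr13:29595663-29595692, - strand): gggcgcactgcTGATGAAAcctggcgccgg
AARS (chr16:70289671-70289708, - strand): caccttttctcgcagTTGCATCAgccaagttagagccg
IARS (chr9:92293698-92293725, - strand): cgcattttcagcgcgTTGCATCAcctcc
MARS (chr12:57488053-57488082, + strand): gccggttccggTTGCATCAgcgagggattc
CARS (chr11:3057407-3057436, - strand): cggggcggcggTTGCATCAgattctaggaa
TARS (chr5:33440956-33440985, + strand): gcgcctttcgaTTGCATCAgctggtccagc
NARS (chr18:57621804-57621833, - strand): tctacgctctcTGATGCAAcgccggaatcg
In ASNS, which encodes asparagine synthetase, the element starts 68 bases before the transcription start. It starts 209 bases before the start in CHAC1 and 187 before in AARS, while in the other 7 genes it lies closer to it. A match of letters is a description of the window and not evidence of binding.

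Library totals ranged from 25063577 to 53291599 expected counts. Levels are given as CPM, the usual depth-scaled count, on library sizes adjusted by TMM, a between-library scaling, and differences as log2 fold changes with their standard error (SE) and an adjusted p from edgeR's quasi-likelihood test, with 0.05 as the threshold. CARM1 was at 16.2 to 28.3 CPM in the 9 scramble libraries, at 2.84 to 8.74 with hairpin 1 and at 2.62 to 4.88 with hairpin 2, and every knockdown library was below every scramble library of its line. CARM1 mRNA left was 19.4% ± 6.76 (SD, n = 3) with hairpin 1 and 16.3% ± 4.39 with hairpin 2 in MOLM-13, 26.2% ± 1.19 and 13.0% ± 2.71 in MV411, and 42.5% ± 9.2 and 15.6% ± 0.508 in SKNO1. PTPRC, SPI1 and CD33, markers of blood and myeloid cells, were at 20.7 CPM or more in every library. Of the other 3 genes on that list, MPO was at 1.5 to 3.59 CPM in MV411, and CEBPA at 4.28 to 9.46 and LYZ at 8.98 to 20.8 in SKNO1. EPCAM, COL1A1, COL1A2, CD3E and HBB were below 1 CPM in every library, while KRT8 reached 8.31 CPM in MV411. HBB had 0 counts in all scramble libraries and between 3 and 79 summed counts in the knockdown groups. Mitochondrial ribosomal RNA took 24.9% of counts in MOLM-13 scramble libraries and 28.3% and 28.2% with hairpins 1 and 2, and 26.2%, 32.4% and 31.1% in MV411. Short structured RNAs took 12.4%, 18.3% and 17.5% in MOLM-13, 12%, 15% and 12.8% in MV411, and 18.6%, 24.6% and 25.2% in SKNO1. Most of these shares were higher with the knockdown, and their part in the results below was not tested. In bulk RNA, fewer cells of one kind and less RNA per cell cannot be told apart.

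Every member that passed the threshold with a single hairpin in MOLM-13 or MV411 fell, although 23 of 37 did not pass with hairpin 2 in MOLM-13 and 31 did not with hairpin 1 in MV411. In SKNO1 members passed with hairpin 2 only. In MOLM-13, 23 of the 37 members fell with hairpin 1 (background: 4.25% of 17732 tested genes fell) and 14 fell with hairpin 2 (6.03%). DESeq2 called 27 and 24, and the fit without a low-count filter 27 and 29, so the order of the hairpins in MOLM-13 depends on the setting. Here and below, shares over all genes are not given for DESeq2, for the fit without a filter or for unadjusted p. Such counts show only how the number of calls moves with the setting. In MV411, 6 fell with hairpin 1 (4.13% of 17816) and 19 with hairpin 2 (10.2%). In SKNO1, where 34 members passed the filter on low counts and NUPR1, CHAC1 and STC2 did not, none fell or rose with hairpin 1 (0.532% of 18430 genes were called in either direction by edgeR). At an unadjusted p under 0.05 there, edgeR put 3 members lower and 5 higher, and DESeq2 called 5 after adjustment. Every hairpin 1 library lay above every scramble library for 7 members in SKNO1 (10.8% of genes), and below for 29 members in MOLM-13 (17.2% of genes). Both held for 6 members, against 2.1% of the 16009 genes tested in both lines. With hairpin 2 in SKNO1, 7 fell (5.69%) and 1, SESN2, rose (5.54%). The median log2 fold change of the members was -1.08 and -0.78 for hairpins 1 and 2 in MOLM-13, -0.50 and -0.74 in MV411, and 0.04 and -0.41 in SKNO1. Over all genes tested the corresponding medians lay between -0.02 and 0.07.

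**Figure D1:**
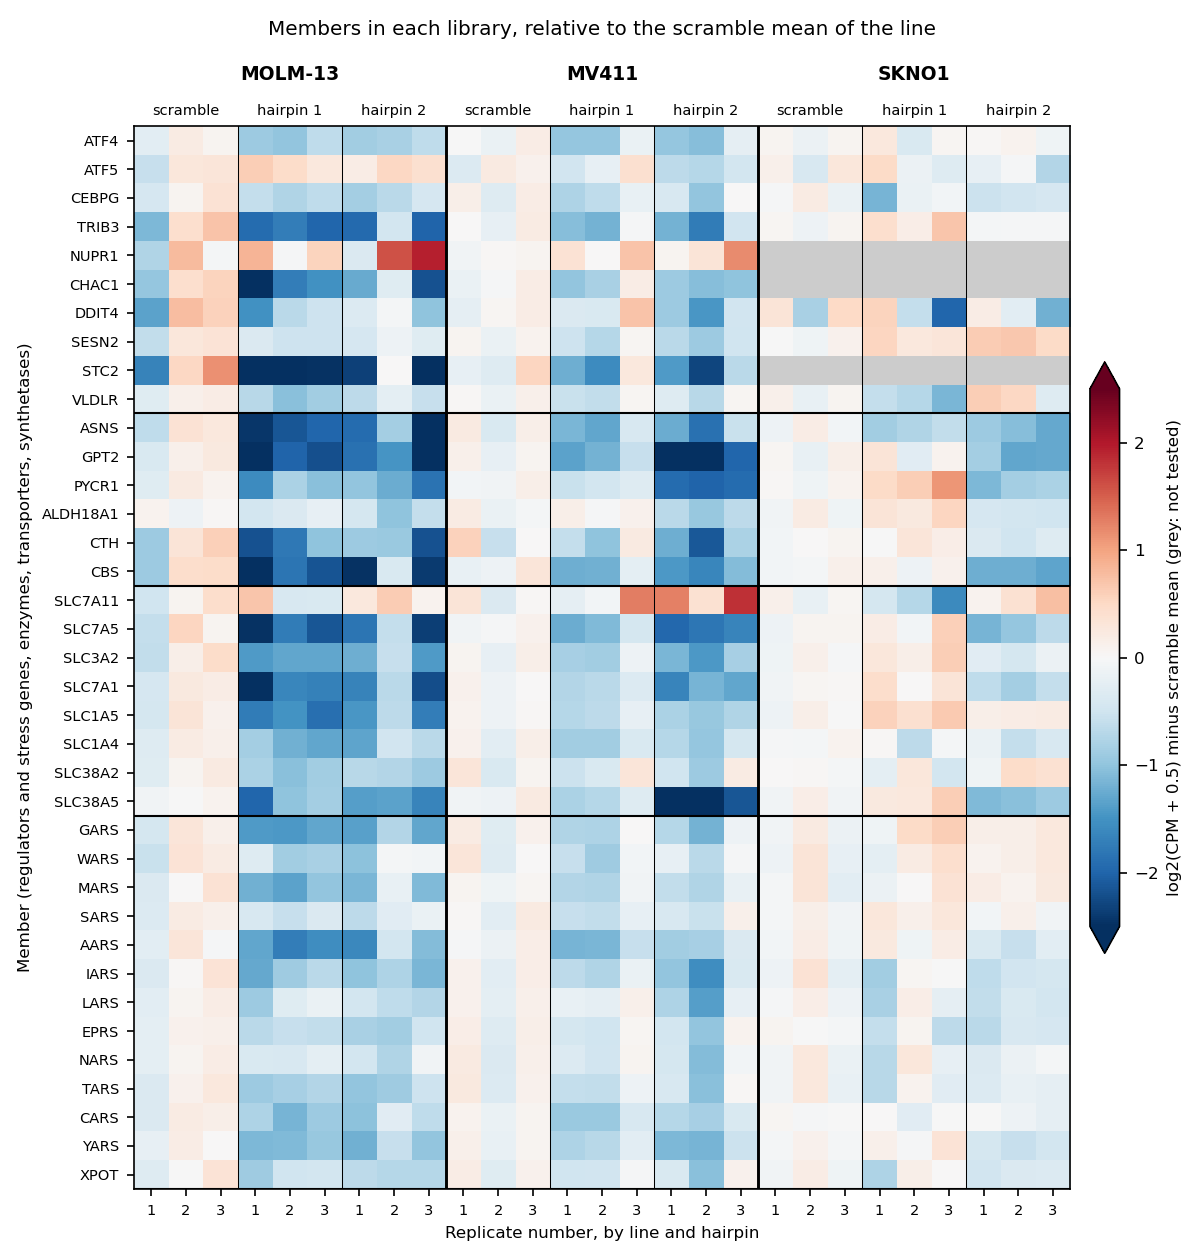
Colour shows log2(CPM + 0.5) of the 37 members (rows, grouped by role) in each of the 27 libraries (columns, by replicate number) minus the mean of the same line's 3 scramble libraries, with grey for members not tested in SKNO1. MOLM-13 and MV411 knockdown columns are mostly below 0, and in SKNO1 the 7 members that fell with hairpin 2 are enzymes and transporters.

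These counts rested on few libraries, and some libraries stood apart. Averaged over all members as log2(CPM + 0.5) relative to the line's scramble mean, MOLM-13 scramble replicate 1 was at -0.51 and the other scramble replicates at 0.24 and 0.27. MOLM-13 hairpin 1 libraries were at -1.25, -1.09 and -1, and hairpin 2 libraries at -1.06, -0.49 and -1.10. MV411 replicate 3 was the highest of both knockdown groups, at -0.03 against -0.69 and -0.71 with hairpin 1 and at -0.45 against -0.88 and -1.20 with hairpin 2. LYZ, the lysozyme gene of mature myeloid cells, was at 3340 CPM in MOLM-13 scramble replicate 1 against 859 and 473, at 5020, 2830 and 3380 with hairpin 1, and at 5000, 726 and 3030 with hairpin 2. In MOLM-13 scramble and hairpin 2 it thus stood apart in the same libraries as the members. In MV411 it averaged 545, 805 and 1280 CPM in scramble, hairpin 1 and hairpin 2, and in SKNO1 18.3, 11.1 and 16. MPO, from the same list of markers, averaged 123, 64.3 and 48.4 CPM in MOLM-13 and 3.12, 1.99 and 1.71 in MV411. It was thus lower with the hairpins where LYZ was higher. PTPRC, SPI1, CD33 and CEBPA averaged higher with each hairpin than in scramble in these 2 lines. The 6 markers of blood and myeloid cells summed to 1060 to 4120, 3700 to 5970 and 1400 to 5770 CPM in the 3 MOLM-13 groups. In MV411 the sums were 759 to 1170, 1130 to 1420 and 1480 to 2090, and in SKNO1 1760 to 3580, 2480 to 5070 and 1980 to 2910. Each sum follows mainly its most abundant gene and is no average of the 6. That gene was LYZ in MOLM-13 and MV411 (473 to 3340 and 362 to 779 CPM in scramble) and MPO in SKNO1 (1550 to 3320). The part of these markers in the members' differences was not tested. SKNO1 hairpin 2 libraries lay close together at -0.32, -0.31 and -0.33, all below the scramble libraries at -0.02, 0.04 and -0.02, and hairpin 1 libraries were at -0.07, -0.02 and 0.01. Only 2 of the 23 calls for MOLM-13 hairpin 1 held in every fit with 1 library left out, 1 of 14 for MOLM-13 hairpin 2, 0 of 6 for MV411 hairpin 1, 9 of 19 for MV411 hairpin 2 and 5 of 8 for SKNO1 hairpin 2. Here and below, the libraries left out are those of the groups compared, 6 for each comparison of 2 groups. Libraries of a line's remaining group always stayed in, although they share the estimate of the spread. All fits with a library left out, also those of MV411, ignored the pairing by replicate number described in the next paragraph. How the calls of the paired MV411 fit hold with a library left out was not tested. MOLM-13 hairpin 1 calls numbered 10, 3 and 6 without hairpin 1 replicate 1, 2 or 3, and 4 and 5 without scramble replicate 2 or 3. For MOLM-13 hairpin 2 they numbered 1 without scramble replicate 2 or without scramble replicate 3, 7 without hairpin 2 replicate 1 and 8 without hairpin 2 replicate 3. MV411 hairpin 1 had 0 calls without hairpin 1 replicate 1, hairpin 1 replicate 2 or scramble replicate 3, and 2 without scramble replicate 1. MV411 hairpin 2 had 9 without hairpin 2 replicate 1, 12 without scramble replicate 1 and 10 without scramble replicate 3. SKNO1 hairpin 2 had 5 without hairpin 2 replicate 1 or 2. In none of the fits with a library left out did a call change its direction.

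In MV411, libraries with the same replicate number deviated from their group means together, so the numbers were taken to pair the samples. The labels do not state such a pairing. A fit with the number as a block moved the counts. With the block, 21 members fell with hairpin 1 (7.43% of all genes fell), and 30 fell and 1 rose with hairpin 2 (14.8% fell, and 27.3% were called in either direction). For both hairpins as 1 group 14 fell (3.97%), and GPT2 and SLC7A1 no longer passed (edgeR adjusted p = 0.058 and 0.071, against 0.042 and 0.047 without the block). ATF4, TRIB3, STC2, IARS, MARS and SLC3A2 passed for that group only with the block (edgeR adjusted p = 0.0075, 0.019, 0.034, 0.043, 0.035 and 0.034). Same-numbered MOLM-13 scramble and hairpin 1 libraries also deviated together (correlations of 0.43, 0.24 and 0.38). Scramble and hairpin 2 there gave 0.34, -0.1 and -0.33, so a pairing by number in MOLM-13 is not settled. With the block, MOLM-13 hairpin 1 had 23 calls, for which the share over all genes is not given here. EPRS no longer passed (edgeR adjusted p = 0.062 against 0.046) and STC2 passed (0.038 against 0.052).

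With both hairpins as 1 knockdown group, 27 members fell in MOLM-13 (9.09% of genes fell), 10 in MV411 (3.72%) and none in SKNO1 (0.0434% called in either direction by edgeR). For SKNO1, 2 members were lower and 1 higher at an unadjusted p under 0.05, and DESeq2 called 1. Differences between the 2 hairpins count as spread in these fits, so a member on which they differ can miss the threshold. As an example, PYCR1 fell with each hairpin in MV411 but did not pass for the group (-1.04, edgeR adjusted p = 0.15). The MOLM-13 count was 14 and 16 without scramble replicate 2 or 3. In MV411 it ranged from 0, without scramble replicate 1 or scramble replicate 3, to 17, without hairpin 1 replicate 3. It was 2 and 5 without hairpin 2 replicate 1 or 3, 4 without hairpin 1 replicate 1 or 2, and 5 without scramble replicate 2. Over the 3 lines together, with the line as a term, 26 members fell (9.79%) and NUPR1 rose (10.1%). This fit takes the 18 knockdown libraries of 2 hairpins and 3 lines as 1 group. Its p-values measure the spread between libraries, not between lines or hairpins. It does not show a fall in each line, as no member passed in SKNO1 alone.

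ATF4 mRNA itself was lower after knockdown in MOLM-13 and, only in the fit with the replicate block, in MV411, and was level in SKNO1. In MOLM-13 it was at 258, 356 and 324 CPM in the scramble libraries, 166, 157 and 200 with hairpin 1, and 170, 176 and 200 with hairpin 2. Every knockdown library was below every scramble library. In MV411 the scramble libraries were at 433, 389 and 499, hairpin 1 at 225, 223 and 392, and hairpin 2 at 224, 208 and 376. Replicate 3 of both hairpins lay close to the lowest scramble library, and the hairpin 1 libraries overlapped the scramble range. SKNO1 was at 263, 228 and 263 in scramble, 303, 193 and 258 with hairpin 1, and 255, 266 and 234 with hairpin 2, with full overlap. The log2 fold changes were -0.85 ± 0.17 (SE, edgeR adjusted p = 0.019) and -0.76 ± 0.17 (0.024) for hairpins 1 and 2 in MOLM-13. Without scramble replicate 2 these edgeR adjusted p were 0.097 and 0.12. In MV411 they were -0.66 ± 0.27 (edgeR adjusted p = 0.19) and -0.74 ± 0.27 (0.083), and -0.72 (0.0057) and -0.78 (0.0016) with the replicate block. In SKNO1 both were -0.01 ± 0.17. The gene lies at chr22:39519695-39522685 (GRCh38), and its expected counts were fractional in all 27 libraries, so a part of its reads is shared with other sequences.

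Of the 10 regulators and stress genes, 4 fell in MOLM-13 with hairpin 1 (ATF4, TRIB3, CHAC1 and VLDLR) and 1 with hairpin 2 (ATF4). In MV411 none fell with hairpin 1 and 3 fell with hairpin 2 (TRIB3, CHAC1 and SESN2). With the block these MV411 counts were 4 and 8. Of all genes, 4.25% and 6.03% fell with hairpins 1 and 2 in MOLM-13. In MV411 4.13% and 10.2% fell, or 7.43% and 14.8% with the block. The regulator counts for MOLM-13 hairpin 2 and, without the block, MV411 hairpin 1 are near these shares and are not read as a result. TRIB3 encodes a pseudokinase induced by ATF4 that feeds back on it. In MOLM-13 it was at 43.3, 127 and 157 CPM in scramble libraries, 24.8, 28.4 and 23.8 with hairpin 1, and 24.4, 69.1 and 23.4 with hairpin 2. All hairpin 1 libraries were below all scramble libraries, while hairpin 2 replicate 2 was above scramble replicate 1. In MV411 it was at 93.7, 80.5 and 108 in scramble, 44.1, 41.0 and 91.2 with hairpin 1, and 40.8, 27.5 and 66.6 with hairpin 2. Only hairpin 2 was separated from scramble there, and with the block hairpin 1 also passed (-0.78, edgeR adjusted p = 0.014 against 0.29). SKNO1 was at 22, 19.6 and 22.5 in scramble, 28.9, 24.1 and 34.6 with hairpin 1, and 20.7, 21.0 and 21.0 with hairpin 2. The hairpin 1 libraries of SKNO1 were all above scramble, but the difference of 0.44 ± 0.17 did not pass (edgeR adjusted p = 0.21). The log2 fold change of TRIB3 was -2.09 ± 0.51 (edgeR adjusted p = 0.036) for MOLM-13 hairpin 1 and -1.09 ± 0.34 (0.049) for MV411 hairpin 2. Each of these calls was lost in 5 of 6 fits with a library left out, up to an edgeR adjusted p of 0.14 without MOLM-13 scramble replicate 3 and 0.16 without MV411 hairpin 2 replicate 1.

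CHAC1 encodes a glutathione-degrading enzyme induced through ATF4. It averaged 18.6 CPM ± 8.94 (SD, n = 3) in MOLM-13 scramble, 4.25 ± 1.63 with hairpin 1 and 7.88 ± 5.21 with hairpin 2. In MV411 it averaged 30.7 ± 3.86, 22.3 ± 10.7 and 15.1 ± 0.757. Its log2 fold change was -2.13 ± 0.55 (edgeR adjusted p = 0.046) for MOLM-13 hairpin 1 and -1.04 ± 0.27 (0.021) for MV411 hairpin 2. In SKNO1 no library had more than 0.283 CPM. VLDLR, a lipoprotein receptor that is also an ATF4 target, fell by 0.89 on the log2 scale in MOLM-13 with hairpin 1 (edgeR adjusted p = 0.022). It passed with no other single hairpin, and with both hairpins as 1 group in MOLM-13 it fell by 0.67 (edgeR adjusted p = 0.029). STC2, a secreted glycoprotein induced by stress, was at 7.56, 35.9 and 56.1 CPM in MOLM-13 scramble libraries and at 1.57, 3.27 and 4.08 with hairpin 1. All 3 hairpin 1 libraries were lower, and its log2 fold change of -3.48 ± 0.93 was the most negative of any member but did not pass (edgeR adjusted p = 0.052). The scramble libraries of STC2 spanned a wide range. In MV411 it passed only with the block, at -0.88 (edgeR adjusted p = 0.022) for hairpin 1 and -1.55 (0.00059) for hairpin 2.

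SESN2, a stress-induced inhibitor of mTORC1 signalling, went in opposite directions in different lines with hairpin 2. It was at 35.1, 30 and 35.8 CPM in MV411 scramble libraries and at 20.7, 17.7 and 23.7 with hairpin 2. In SKNO1 it was at 3.44, 3.23 and 3.83 in scramble, 5.26, 4.27 and 4.44 with hairpin 1, and 5.69, 5.85 and 5.07 with hairpin 2. The groups did not overlap in either line, with MV411 hairpin 2 below and both SKNO1 knockdown groups above scramble. SESN2 fell by 0.72 (SE 0.20, edgeR adjusted p = 0.028) in MV411 and rose by 0.65 (SE 0.18, 0.038) in SKNO1. The SKNO1 call was lost in all 6 fits with a library left out, with an edgeR adjusted p of up to 0.15 without hairpin 2 replicate 2, and in the fit without a low-count filter (0.13). The MV411 call was lost in 4 of 6, up to 0.099 without hairpin 2 replicate 1.

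The other regulators passed in no hairpin comparison without the block. DDIT4, an mTORC1 inhibitor, averaged 58.5 CPM ± 8.09 in MV411 scramble and 31.2 ± 10.5 with hairpin 2 (-0.93 ± 0.31, edgeR adjusted p = 0.06, or 0.0039 with the block). CEBPG, a C/EBP partner of ATF4, was between -0.42 and -0.69 in all 6 hairpin comparisons, and with the MV411 block reached edgeR adjusted p = 0.04 with hairpin 1 and 0.034 with hairpin 2. ATF5, a paralogue of ATF4, was at 0.41 ± 0.24 and 0.34 ± 0.24 in MOLM-13 and at -0.65 ± 0.22 with hairpin 2 in MV411 (edgeR adjusted p = 0.067, or 0.013 with the block). NUPR1, a small stress-induced chromatin protein, had low counts, at most 161 in a MOLM-13 library and 41 in an MV411 library. Its highest library had 4.22 CPM in MOLM-13 and 1.19 in MV411, and SKNO1 had a single count over its 9 libraries. It rose only in the fit over the 3 lines (1.18 ± 0.41, edgeR adjusted p = 0.04), which rests on 101, 115 and 277 summed counts in MOLM-13 scramble, hairpin 1 and hairpin 2 and on 28, 45 and 60 in MV411.

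The 6 enzymes were the role group in which most members fell with hairpin 2: 4 of 6 in MOLM-13, 6 of 6 in MV411 and 4 of 6 in SKNO1. With hairpin 1 the counts were 4 in MOLM-13, 2 in MV411 (4 with the block) and 0 in SKNO1. Of all genes, 6.03%, 10.2% and 5.69% fell with hairpin 2 in MOLM-13, MV411 and SKNO1. The shares with hairpin 1 were 4.25%, 4.13% (7.43% with the block) and 0.277%. GPT2 and PYCR1 fell in 5 of the 6 hairpin comparisons, more often than any other member, and ASNS in 4. ASNS, GPT2 and PYCR1 were, with the transporter SLC38A5, the 4 members that fell with hairpin 2 in all 3 lines. The share of all genes that fell in all 3 lines is not given here, so this count has no background beside it.

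PYCR1 encodes a mitochondrial reductase that completes proline synthesis (chr17:81932384-81942412, - strand, GRCh38). In MOLM-13 it was at 46.6, 67.2 and 61.4 CPM in scramble libraries, 19.1, 33.1 and 27.7 with hairpin 1, and 29, 24.1 and 15.6 with hairpin 2. In MV411 it was at 49.0, 48.4 and 56.7, then 34.9, 37 and 40.6, and 13.2, 12.4 and 13.2. SKNO1 was at 22.3, 20.4 and 23.2, then 30.9, 34.0 and 47.4, and 9.83, 11.9 and 12.5. Hairpin 2 libraries were below scramble in every line, while hairpin 1 libraries were below scramble in MOLM-13 and MV411 and above it in SKNO1. The log2 fold changes with hairpin 2 were -1.33 ± 0.27 (edgeR adjusted p = 0.016), -2.01 ± 0.13 (2.5e-05) and -0.96 ± 0.19 (0.0085) in MOLM-13, MV411 and SKNO1. With hairpin 1 they were -1.14 ± 0.27 (0.033), -0.46 ± 0.12 (0.049) and 0.76 ± 0.19 (edgeR adjusted p = 0.088). The MV411 hairpin 2 and SKNO1 hairpin 2 calls held in all fits with a library left out. The MV411 hairpin 1 call was lost in all 6, up to an edgeR adjusted p of 0.25 without hairpin 1 replicate 1. MOLM-13 hairpin 1 lost its call in 5 of 6 (0.13 without scramble replicate 2) and hairpin 2 in 2 of 6 (0.068 without scramble replicate 2).

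GPT2, the mitochondrial alanine transaminase (chr16:46884378-46931297, + strand), was at 53.7, 76.7 and 83.0 CPM in MOLM-13 scramble libraries, 8.36, 17.2 and 14.8 with hairpin 1, and 18.8, 25 and 5.94 with hairpin 2. In MV411 it was at 93.3, 74.0 and 88.4, then 33.3, 37.2 and 57.0, and 14.4, 12.3 and 21.1. In SKNO1 it was at 23.8, 19.9 and 25.2, then 28.7, 18.7 and 24.4, and 12.4, 8.93 and 9.12. All groups were separated from scramble apart from SKNO1 hairpin 1, which overlapped it. With hairpin 2 it fell by 2.07 (SE 0.46, edgeR adjusted p = 0.022), 2.44 (SE 0.25, 0.00023) and 1.19 (SE 0.20, 0.0039) on the log2 scale in MOLM-13, MV411 and SKNO1. With hairpin 1 it fell by 2.41 (SE 0.46, 0.015) in MOLM-13 and 1.01 (SE 0.23, 0.028) in MV411 by edgeR adjusted p, and was at 0.05 ± 0.20 in SKNO1. The MV411 and SKNO1 hairpin 2 calls held with any library left out. The largest edgeR adjusted p of the other calls was 0.056 for MOLM-13 hairpin 1 and 0.076 for MOLM-13 hairpin 2, each without scramble replicate 3, and 0.15 for MV411 hairpin 1 without its replicate 1.

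ASNS makes asparagine from aspartate and glutamine (chr7:97852118-97872542, - strand), and its promoter carries the composite element shown above. It was at 56.8, 114 and 107 CPM in MOLM-13 scramble libraries, 15.9, 19.7 and 22 with hairpin 1, and 23.0, 48.7 and 14.6 with hairpin 2. MV411 libraries were at 209, 136 and 198, then 79.8, 71.7 and 135, and 75.1, 48.7 and 120. SKNO1 was lower throughout, at 12, 14.9 and 12.5, then 6.93, 7.57 and 8.4, and 6.78, 5.97 and 5.07. Every knockdown library was below every scramble library in all 3 lines, although MV411 hairpin 1 replicate 3 missed the lowest scramble library by little. ASNS fell by 2.28 (SE 0.42, edgeR adjusted p = 0.012) and 1.66 (SE 0.41, 0.033) with hairpins 1 and 2 in MOLM-13. In MV411 hairpin 2 it fell by 1.19 (SE 0.33, edgeR adjusted p = 0.027), and hairpin 1 gave -0.93 ± 0.32 (0.12, or 0.0042 with the block). In SKNO1 it fell by 1.16 with hairpin 2 (SE 0.18, edgeR adjusted p = 0.0028), and hairpin 1 gave -0.79 ± 0.18 (0.078). The SKNO1 hairpin 2 call held in every fit with a library left out. The others did not, with edgeR adjusted p of up to 0.053 for MOLM-13 hairpin 1 without its replicate 2, 0.12 for MOLM-13 hairpin 2 without scramble replicate 2, and 0.11 for MV411 hairpin 2 without its replicate 1.

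CBS and CTH carry out the steps of transsulfuration, which makes cysteine from homocysteine, and ALDH18A1 begins proline synthesis from glutamate. CBS was at 38.1, 38.2 and 43.3 CPM in SKNO1 scramble libraries, 43.4, 36.5 and 42.9 with hairpin 1, and 16.8, 16.8 and 15.6 with hairpin 2. The hairpin 2 libraries stood well below the other 6, which overlapped. CBS fell by 1.30 there (SE 0.16, edgeR adjusted p = 0.00065), by 1.43 with hairpin 2 in MV411 (SE 0.27, 0.0047) and by 2.5 with hairpin 1 in MOLM-13 (SE 0.64, 0.045). The MOLM-13 hairpin 2 difference of -1.51 ± 0.61 did not pass (edgeR adjusted p = 0.14), and MV411 hairpin 1 passed only with the block (-0.91, 0.0029). Leaving out a library ended only the MOLM-13 call, up to an edgeR adjusted p of 0.14 without scramble replicate 3. ALDH18A1 averaged 60.9 CPM ± 4.48 (SD, n = 3), 48.1 ± 4.38 and 38.3 ± 7.42 in MOLM-13 scramble, hairpin 1 and hairpin 2, and 64.1 ± 8.18, 67.3 ± 4.28 and 37.6 ± 4.25 in MV411. It fell with hairpin 2 in both lines, by 0.65 (SE 0.16, edgeR adjusted p = 0.035) and 0.79 (SE 0.14, 0.003), and with hairpin 1 in neither. CTH averaged 13.1 CPM ± 5.35 in MV411 scramble and 4.84 ± 2.24 with hairpin 2, where it fell by 1.46 (SE 0.43, edgeR adjusted p = 0.036). That call was lost in 4 of 6 fits with a library left out, up to 0.12 without scramble replicate 1.

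**Figure D2:**
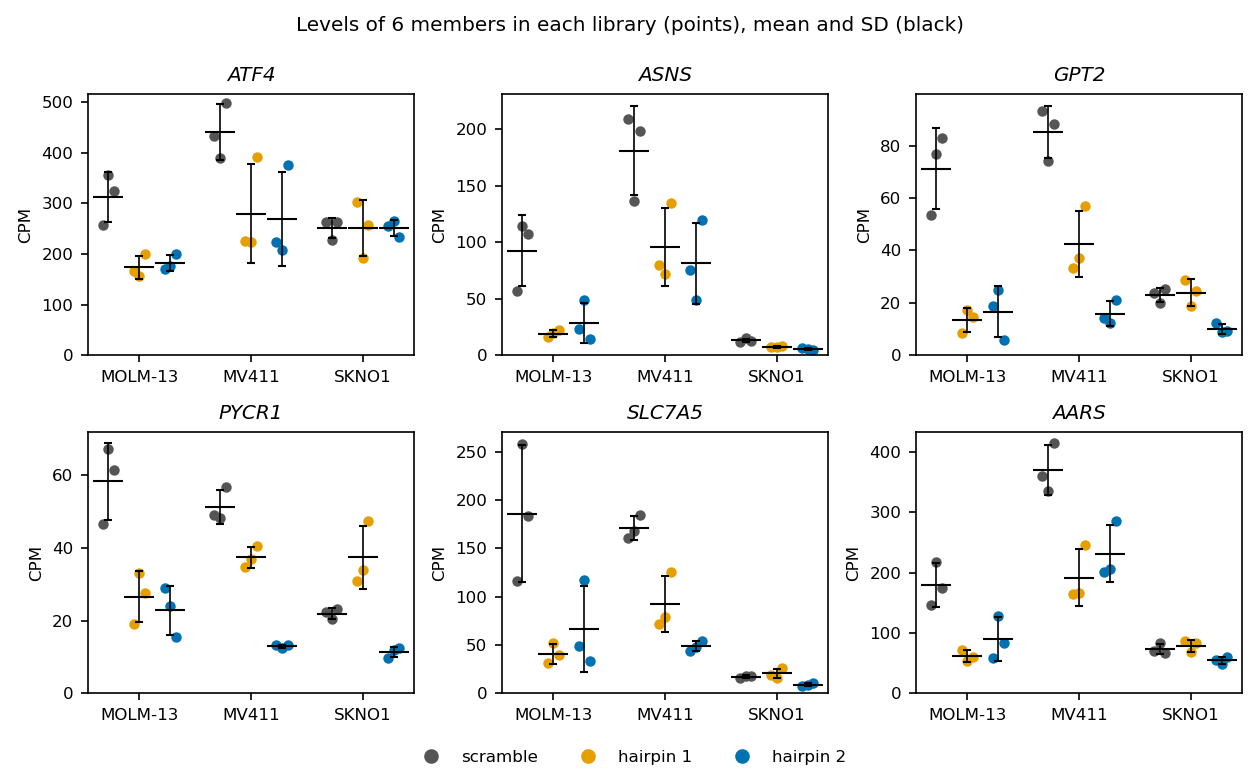
CPM (vertical axis) of ATF4, ASNS, GPT2, PYCR1, SLC7A5 and AARS in each library of the 3 lines, with 1 point per library and the mean and SD of each group (n = 3) in black. PYCR1 and GPT2 hairpin 2 libraries lie below scramble in all 3 lines, while the SKNO1 hairpin 1 libraries of PYCR1 lie above scramble.

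Among the 8 transporters, 7 fell in MOLM-13 with hairpin 1 and 4 with hairpin 2. In MV411, 2 fell with hairpin 1 (6 with the block) and 6 with hairpin 2, and in SKNO1 none fell with hairpin 1 and 3 with hairpin 2. Of all genes, 4.25%, 4.13% (7.43% with the block) and 0.277% fell with hairpin 1 in MOLM-13, MV411 and SKNO1. The shares with hairpin 2 were 6.03%, 10.2% and 5.69%. SLC7A11 fell in none of these comparisons and is described last. SLC38A5 and SLC7A5 fell in 4 of the 6 comparisons each.

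SLC38A5 is a sodium-coupled transporter of glutamine, serine and other neutral amino acids (chrX:48458537-48470256, - strand). It was at 34.4, 36.4 and 38.8 CPM in MOLM-13 scramble libraries, 8.82, 17.9 and 19.9 with hairpin 1, and 13.8, 14.1 and 11.3 with hairpin 2. MV411 libraries were at 11.7, 11.4 and 14.6, then 6.97, 7.43 and 9.92, and 1.59, 1.46 and 2.47. SKNO1 was at 35.6, 42.5 and 35.8, then 44.7, 45.7 and 57.9, and 17.3, 18.2 and 19.9. No knockdown group overlapped scramble, and the only group above it was SKNO1 hairpin 1. With hairpin 2 it fell by 1.46 (SE 0.26, edgeR adjusted p = 0.0093), 2.78 (SE 0.24, 0.00018) and 1.06 (SE 0.17, 0.003) on the log2 scale in MOLM-13, MV411 and SKNO1, and all 3 calls held with any library left out. With hairpin 1 it fell by 1.24 in MOLM-13 (SE 0.26, edgeR adjusted p = 0.02), a call lost in 3 of 6 such fits, up to 0.079 without scramble replicate 3. The hairpin 1 values were -0.64 ± 0.22 in MV411 (edgeR adjusted p = 0.12, or 0.014 with the block) and 0.37 ± 0.17 in SKNO1 (0.29).

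SLC7A5 and SLC3A2 together form the LAT1 exchanger, which imports leucine and other large neutral amino acids. SLC7A5 (chr16:87830023-87869488, - strand) was at 116, 258 and 184 CPM in MOLM-13 scramble libraries, 31.5, 52.1 and 39.7 with hairpin 1, and 49.4, 117 and 34.0 with hairpin 2. In MV411 it was at 161, 168 and 185, then 72, 79.4 and 126, and 43.6, 48.5 and 54.0. SKNO1 was at 15.6, 18 and 18.1, then 19.5, 16.3 and 26.1, and 7.42, 8.52 and 10.7. MOLM-13 hairpin 2 and SKNO1 hairpin 1 overlapped scramble, and the other 4 knockdown groups were below it. It fell by 2.18 with hairpin 1 in MOLM-13 (SE 0.45, edgeR adjusted p = 0.02), by 0.90 and 1.84 with hairpins 1 and 2 in MV411 (SE 0.20 and 0.21, 0.024 and 0.00034), and by 0.97 with hairpin 2 in SKNO1 (SE 0.21, 0.013). The MOLM-13 hairpin 2 value of -1.45 ± 0.44 did not pass (edgeR adjusted p = 0.065). Its MV411 hairpin 2 call held with any library left out. The other 3 reached edgeR adjusted p of 0.078 without MOLM-13 hairpin 1 replicate 3, 0.13 without MV411 hairpin 1 replicate 1 and 0.069 without SKNO1 hairpin 2 replicate 2. SLC7A5 is among the 5 members, with ATF4, SLC1A5, MARS and XPOT, whose expected counts were fractional in all 27 libraries.

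SLC3A2, the heavy chain of LAT1 and of the cystine exchanger, averaged 132 CPM ± 46.7 (SD, n = 3), 49.6 ± 2.60 and 61.6 ± 19.9 in MOLM-13 scramble, hairpin 1 and hairpin 2, and 178 ± 21.1, 119 ± 36.6 and 81.4 ± 17.1 in MV411. It fell by 1.42 (SE 0.29, edgeR adjusted p = 0.02) and 1.07 (SE 0.29, 0.045) in MOLM-13 and by 1.15 with hairpin 2 in MV411 (SE 0.22, 0.0049). The 2 MOLM-13 calls reached edgeR adjusted p of 0.083 and 0.15 without scramble replicate 3. In MV411 hairpin 1 it passed only with the block (-0.62, edgeR adjusted p = 0.012). SLC7A1, the arginine and lysine importer CAT1, averaged 162 CPM ± 38.3, 42.5 ± 12.9 and 61.2 ± 34.8 in MOLM-13, 103 ± 8.4, 68.8 ± 10.2 and 39.7 ± 6.68 in MV411, and 82.5 ± 4.19, 99.5 ± 14.8 and 51.1 ± 4.64 in SKNO1. It fell by 1.94 with hairpin 1 in MOLM-13 (SE 0.40, edgeR adjusted p = 0.019), and by 1.39 (SE 0.17, 0.00046) and 0.70 (SE 0.16, 0.018) with hairpin 2 in MV411 and SKNO1. The first and last of these were lost with some libraries left out, up to an edgeR adjusted p of 0.07 without MOLM-13 scramble replicate 3 and 0.093 without SKNO1 hairpin 2 replicate 2. In MV411 hairpin 1 it passed only with the block (-0.60, edgeR adjusted p = 0.027).

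SLC1A5, the glutamine exchanger ASCT2, was at 154, 261 and 226 CPM in MOLM-13 scramble libraries, 61.7, 73.6 and 56.2 with hairpin 1, and 75.4, 132 and 62.8 with hairpin 2. MV411 libraries were at 258, 222 and 249, then 147, 153 and 210, and 140, 126 and 143. SKNO1 was at 61.3, 74.4 and 67.0, then 101, 89.2 and 106, and 74.6, 77.0 and 78.2. Knockdown libraries were all below scramble in MOLM-13 and MV411 and all above it in SKNO1, with hairpin 2 only just. SLC1A5 fell by 1.75 (SE 0.30, edgeR adjusted p = 0.0094) and 1.22 (SE 0.30, 0.031) in MOLM-13 and by 0.85 with hairpin 2 in MV411 (SE 0.16, 0.0042). In MV411 hairpin 1 the value was -0.53 ± 0.16 (edgeR adjusted p = 0.079, or 0.021 with the block). The SKNO1 values of 0.53 ± 0.15 and 0.17 ± 0.15 did not pass (edgeR adjusted p = 0.13 and 0.54). Of its 3 calls only MOLM-13 hairpin 2 was lost with a library left out, up to 0.12 without scramble replicate 2.

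SLC1A4, a related carrier of alanine, serine and cysteine, averaged 159 CPM ± 23.3 (SD, n = 3) in MV411 scramble, 97.7 ± 19.8 with hairpin 1 and 97.8 ± 17.5 with hairpin 2. It fell by 0.71 (SE 0.19, edgeR adjusted p = 0.047) and 0.73 (SE 0.19, 0.021) there and by 1.13 with hairpin 1 in MOLM-13 (SE 0.24, 0.021). Each of the 3 calls was lost in 3 or 4 of 6 fits with a library left out, the most in MV411 hairpin 1 without its replicate 1 (edgeR adjusted p = 0.23). SLC38A2, the starvation-regulated carrier SNAT2, fell in MOLM-13 only, by 0.92 (SE 0.18, edgeR adjusted p = 0.016) and 0.77 (SE 0.18, 0.027). It averaged 272 CPM ± 50.7 in MOLM-13 scramble and 145 ± 13.1 and 157 ± 12.5 with the hairpins. Without scramble replicate 3 the hairpin 1 value had an edgeR adjusted p of 0.079, and without scramble replicate 2 the hairpin 2 value had 0.11.

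SLC7A11, the cystine-importing subunit of the exchanger xCT, fell in no comparison with scramble. It was at 63.7, 39.3 and 52.1 CPM in MV411 scramble libraries, 43.3, 48.3 and 123 with hairpin 1, and 122, 66.4 and 181 with hairpin 2. Hairpin 2 libraries were all above scramble, by 1.22 ± 0.42 (edgeR adjusted p = 0.069), and with the block it rose (1.11, 0.012), the only member to do so in MV411. In SKNO1 the scramble libraries were at 11.4, 9.06 and 10.7, hairpin 1 at 7.46, 6.13 and 3.11, and hairpin 2 at 11.1, 13.7 and 17.8. Hairpin 1 was below scramble without passing (-0.91 ± 0.28, edgeR adjusted p = 0.15). SLC7A11 is also controlled by the oxidative stress factor NRF2, as background.

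The synthetases charge tRNA with amino acids in the cytosol, and XPOT carries tRNA out of the nucleus. Of these 13 members, 8 fell in MOLM-13 with hairpin 1 (GARS, MARS, AARS, IARS, EPRS, TARS, CARS and YARS) and 5 with hairpin 2 (GARS, IARS, EPRS, TARS and YARS). In MV411, AARS and CARS fell with hairpin 1 and AARS, IARS, CARS and YARS with hairpin 2. With the block these MV411 counts were 7 and 10. Of all genes, 4.25% and 6.03% fell with hairpins 1 and 2 in MOLM-13, and 0.277% and 5.69% in SKNO1. In MV411 4.13% and 10.2% fell, or 7.43% and 14.8% with the block. None of the 13 passed in SKNO1 with either hairpin, where log2 fold changes lay between -0.37 and 0.34 with hairpin 1 and between -0.56 and 0.16 with hairpin 2. The median log2 fold changes of the 13 were -0.85 and -0.71 in MOLM-13, -0.48 and -0.53 in MV411, and -0.10 and -0.28 in SKNO1.

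AARS, the alanyl-tRNA synthetase, was at 147, 218 and 174 CPM in MOLM-13 scramble libraries, 72, 53.1 and 60.4 with hairpin 1, and 58.0, 129 and 83.8 with hairpin 2. MV411 libraries were at 360, 335 and 415, then 164, 166 and 246, and 202, 206 and 286. SKNO1 was at 69.8, 83.2 and 67.5, then 86.6, 67.9 and 83.0, and 55.8, 48.6 and 60.6. The only knockdown group that overlapped scramble was SKNO1 hairpin 1. AARS fell by 1.54 with hairpin 1 in MOLM-13 (SE 0.28, edgeR adjusted p = 0.012) and by 0.96 (SE 0.20, 0.017) and 0.70 (SE 0.20, 0.031) with hairpins 1 and 2 in MV411. These calls reached edgeR adjusted p of 0.059 without MOLM-13 hairpin 1 replicate 2, 0.11 without MV411 hairpin 1 replicate 1 and 0.14 without MV411 hairpin 2 replicate 1. The MOLM-13 hairpin 2 value of -0.97 ± 0.28 just missed (edgeR adjusted p = 0.053).

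YARS, the tyrosyl-tRNA synthetase, was at 132, 174 and 153 CPM in MOLM-13 scramble libraries, 69.6, 70.1 and 78.9 with hairpin 1, and 65.9, 102 and 76.4 with hairpin 2. MV411 libraries were at 236, 190 and 229, then 127, 134 and 181, and 99.4, 96.2 and 149. SKNO1 was at 100, 112 and 99.7, then 114, 101 and 131, and 76.7, 69.5 and 75.1. Knockdown libraries were below scramble except in SKNO1 hairpin 1. It fell by 1.08 (SE 0.19, edgeR adjusted p = 0.011) and 0.89 (SE 0.19, 0.021) in MOLM-13 and by 0.95 with hairpin 2 in MV411 (SE 0.20, 0.0081). In MV411 hairpin 1 it passed only with the block (-0.60, edgeR adjusted p = 0.016). The SKNO1 hairpin 2 value was -0.51 ± 0.16 (edgeR adjusted p = 0.055). Leaving out a library raised these to at most 0.056 (MOLM-13 hairpin 1, without its replicate 2), 0.092 (MOLM-13 hairpin 2, without scramble replicate 2) and 0.052 (MV411 hairpin 2, without its replicate 1).

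GARS, which charges glycine, fell by 1.43 (SE 0.23, edgeR adjusted p = 0.0072) and 1.11 (SE 0.23, 0.018) in MOLM-13, where it averaged 169 CPM ± 41.9 (SD, n = 3) in scramble, 62.9 ± 3.40 with hairpin 1 and 76.8 ± 19.5 with hairpin 2. Its hairpin 1 call held with any library left out. IARS, which charges isoleucine, fell by 0.97 with each hairpin in MOLM-13 (SE 0.22, edgeR adjusted p = 0.03 and 0.025) and by 0.94 with hairpin 2 in MV411 (SE 0.27, 0.033). CARS, which charges cysteine, averaged 132 CPM ± 12.8 in MV411 scramble, 79.8 ± 17.9 with hairpin 1 and 85.0 ± 14.1 with hairpin 2, and fell by 0.74 (SE 0.18, edgeR adjusted p = 0.034) and 0.66 (SE 0.18, 0.026). EPRS, which charges both glutamate and proline, and TARS, which charges threonine, fell in MOLM-13 only, by between 0.64 and 0.85 on the log2 scale. Apart from GARS with hairpin 1, every one of these calls was lost when some library was left out, up to an edgeR adjusted p of 0.19 (EPRS, MOLM-13 hairpin 1, without scramble replicate 2). With the block in MV411, IARS, MARS, SARS, WARS and YARS also passed with hairpin 1 (edgeR adjusted p = 0.016 to 0.04). EPRS, GARS, LARS, MARS, NARS and TARS also passed with hairpin 2 (0.0035 to 0.036). WARS, SARS, LARS, NARS and XPOT passed in no hairpin comparison without the block, and XPOT in none with it. The 10 members with a composite element in the window fell in a median of 3 of the 6 hairpin comparisons (range 0 to 4), and the 21 with a window and no match in a median of 2 (range 0 to 4), which is given as a description. The 6 without a window fell in a median of 1.5 (range 0 to 5). GPT2 and PYCR1, the members that fell most often, are among these 6, so the comparison leaves them out.

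The hairpins differed in MV411 and SKNO1 and not detectably in MOLM-13. In MV411, 6 members were lower with hairpin 2 than with hairpin 1 (background 5.62% lower) and none higher (5.86%), and with the block 13 were lower (10% lower). In SKNO1, 9 were lower (5%) and 2 higher (4.52%). In MOLM-13, edgeR called 0 of 37 members and 0% of 17732 genes, also with no member at an unadjusted p under 0.05, DESeq2 called 0 members, and the fit without a low-count filter called 2. The 6 members of MV411, namely ALDH18A1, GPT2, PYCR1, SLC38A5, SLC7A1 and SLC7A5, were also among the 9 of SKNO1. The share of all genes lower with hairpin 2 than hairpin 1 in both lines is not given here. The MV411 and SKNO1 lists each compare the hairpin 1 and hairpin 2 libraries of their own line. The scramble libraries of the line entered the low-count filter, the scaling and the estimate of the spread. The same 2 hairpins were used in both lines.

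PYCR1 was lower with hairpin 2 by 1.55 ± 0.13 on the log2 scale in MV411 (edgeR adjusted p = 0.00016) and by 1.72 ± 0.19 in SKNO1 (0.00031). For SLC38A5 the differences were -2.14 ± 0.24 (edgeR adjusted p = 0.00073) and -1.42 ± 0.17 (0.00052). GPT2 differed by -1.43 ± 0.24 (edgeR adjusted p = 0.004) and -1.24 ± 0.20 (0.0029), and ALDH18A1 by -0.85 ± 0.14 (0.0034) and -0.85 ± 0.16 (0.006). These 4 genes kept their calls in both lines with any library left out. In MOLM-13 the same differences were -0.19 ± 0.27, -0.22 ± 0.26, 0.34 ± 0.44 and -0.30 ± 0.16. SLC7A5 and SLC7A1 differed by -0.94 ± 0.20 (edgeR adjusted p = 0.013) and -0.80 ± 0.17 (0.011) in MV411, and by -1.21 ± 0.21 (0.0037) and -0.96 ± 0.16 (0.0036) in SKNO1. Without MV411 hairpin 2 replicate 1 the MV411 edgeR adjusted p were 0.074 and 0.059. In SKNO1, CBS (-1.32 ± 0.16, edgeR adjusted p = 0.00044), SLC3A2 (-0.65 ± 0.18, 0.036) and YARS (-0.64 ± 0.16, 0.022) were lower with hairpin 2, and VLDLR (1.15 ± 0.25, 0.011) and SLC7A11 (1.35 ± 0.28, 0.011) were higher. Without SKNO1 hairpin 2 replicate 2 the edgeR adjusted p were 0.19 for SLC3A2, 0.13 for YARS and 0.068 for VLDLR, and for SLC7A11 it was 0.059 without hairpin 2 replicate 3. With the block, ATF5, DDIT4, CBS, CTH, SLC3A2, IARS and LARS were also lower with hairpin 2 in MV411 (edgeR adjusted p = 0.0069 to 0.046).

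ATF4 mRNA itself did not differ detectably between the hairpins, at 0.09 ± 0.17 in MOLM-13, -0.07 ± 0.27 in MV411 and 0.00 ± 0.17 in SKNO1. CARM1 did: the difference of hairpin 2 from hairpin 1 was -1.02 ± 0.18 in MV411 (edgeR adjusted p = 0.0046) and -1.45 ± 0.20 in SKNO1 (0.00096), and -0.22 ± 0.30 in MOLM-13 (edgeR adjusted p = 1). Whether the depth of knockdown or another property of the hairpins goes with the members' differences was not tested, since each hairpin has 1 level in each line.

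**Figure D3:**
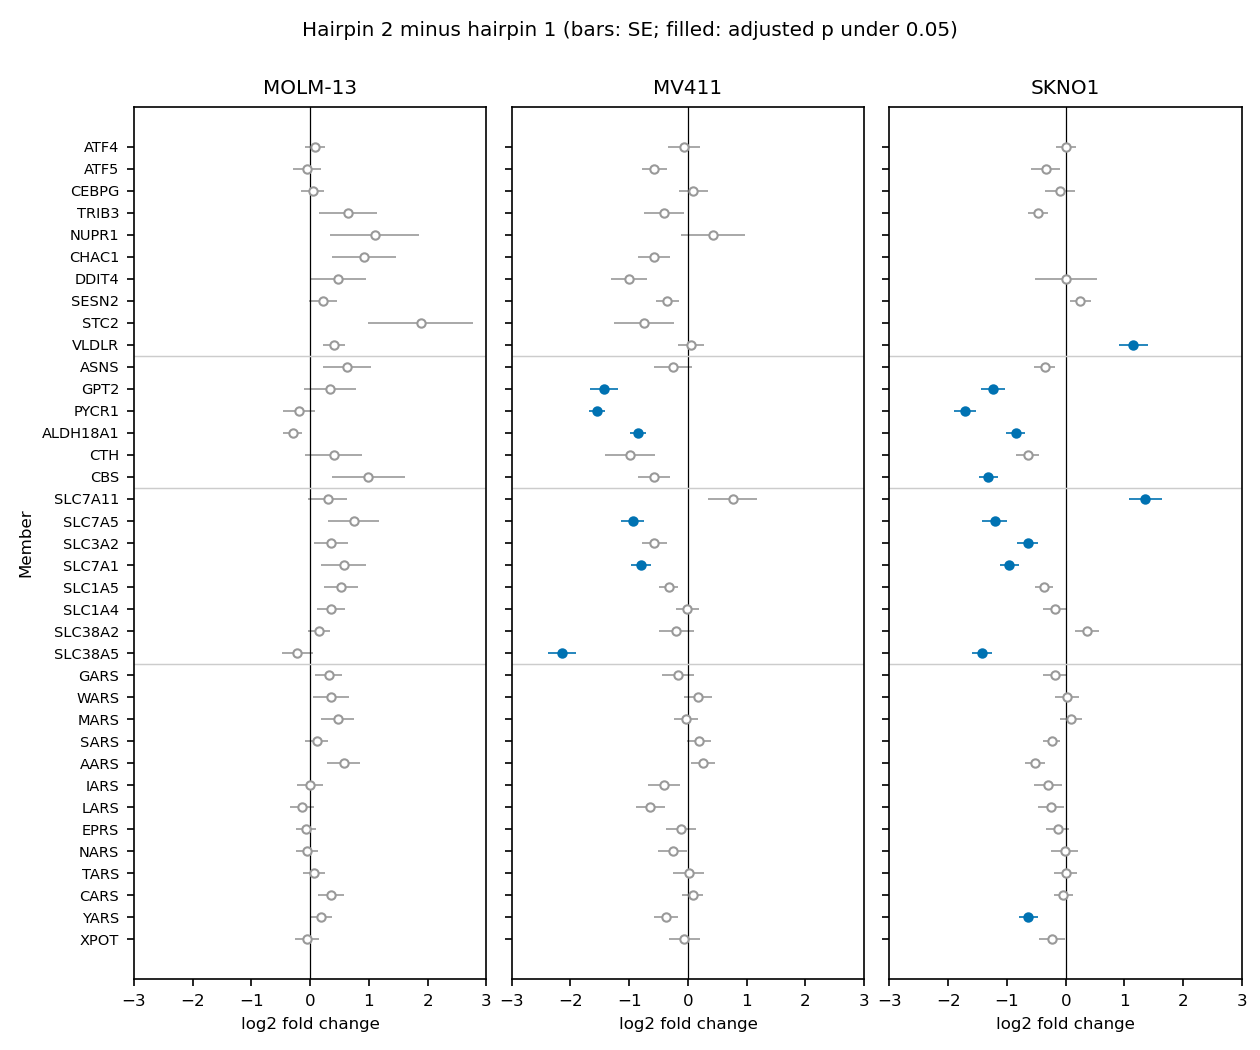
Log2 fold change of hairpin 2 over hairpin 1 (horizontal axis) of each member in MOLM-13, MV411 and SKNO1, with bars for the SE and filled points where the edgeR adjusted p was under 0.05. No point is filled in MOLM-13, 6 are filled in MV411 and 11 in SKNO1.

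Tests of whether the hairpin 2 effect differed between lines called few members. Between MOLM-13 and MV411 edgeR called none (background 0.0705% in either direction), with 3 members higher at an unadjusted p under 0.05, and the fit without a low-count filter called 1. Between MOLM-13 and SKNO1 it called 1, SLC1A5 (0.296% lower), whose effect was 1.43 ± 0.30 lower on the log2 scale in MOLM-13 (edgeR adjusted p = 0.026). Between MV411 and SKNO1 it called 2 (0.55% lower): SLC38A5, at -1.71 ± 0.33 (edgeR adjusted p = 0.01), and SESN2, at -1.36 ± 0.30 (0.027). The SLC38A5 call held in all 12 fits with a library left out. SLC1A5 lost its call in 8 of 12 and SESN2 in 7 of 12, up to an edgeR adjusted p of 0.098 and 0.079 without SKNO1 scramble replicate 1. Between MOLM-13 and SKNO1 the count was 4 without MOLM-13 hairpin 2 replicate 2 and 2 without MOLM-13 scramble replicate 1. For the other members no difference between lines was shown, which does not mean that the effects were alike. As an example, the ATF4 effect differed by -0.78 ± 0.32 between MOLM-13 and SKNO1 (edgeR adjusted p = 0.27).

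Before any knockdown, scramble libraries of SKNO1 held less RNA of most members than those of the KMT2A-rearranged lines. MOLM-13 exceeded SKNO1 for 28 members (background 28.8% higher) and was below it for 3 (27.2%), and MV411 exceeded SKNO1 for 31 (28.4%) and was below it for 2 (27.1%). The median log2 difference of the members was 1.43 for MOLM-13 and 1.84 for MV411. STC2 and CHAC1 were nearly absent in SKNO1 scramble, with 5 and 20 summed counts against 4354 and 2351 in MOLM-13 and 2340 and 3406 in MV411. NUPR1 had 0 counts there, so with 3 counts over the SKNO1 group as the floor MOLM-13 was at least 40.9-fold and MV411 at least 11.9-fold higher. ASNS was 2.84 ± 0.26 higher in MOLM-13 (edgeR adjusted p = 4e-06) and 3.78 ± 0.27 higher in MV411 (5.7e-07), and SLC7A5 3.45 ± 0.26 (7e-07) and 3.32 ± 0.25 (9.4e-07). CARS, the cysteinyl synthetase, was 2.02 ± 0.16 (edgeR adjusted p = 1.2e-06) and 2.90 ± 0.17 (8.9e-08) higher. The members above both other lines in SKNO1 were few: ALDH18A1 exceeded MOLM-13 by 0.98 ± 0.14 (edgeR adjusted p = 0.0001) and MV411 by 0.92 ± 0.14 (0.00015). SLC38A5 stood 1.60 ± 0.14 above MV411 (edgeR adjusted p = 3.3e-06) and level with MOLM-13 (0.04 ± 0.14), ATF5 was 1.52 ± 0.26 above MOLM-13 (0.00048), and TARS 0.55 ± 0.20 above it (0.038). ATF4 mRNA differed less, by 0.33 ± 0.16 for MOLM-13 (edgeR adjusted p = 0.094) and 0.81 ± 0.16 for MV411 (0.001). The lines also differ in GM-CSF, which SKNO1 alone received, and in mitochondrial ribosomal RNA, at 0.0913% of counts in SKNO1 scramble libraries. The line, the supplement and the library composition cannot be told apart. MOLM-13 was below MV411 for 12 members (14.8% lower), 7 of them synthetases, and above it for 2, SLC38A5 and SLC7A1 (16% higher). The MOLM-13 to MV411 total was 9 without MV411 scramble replicate 1 or 3.

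**Figure D4:**
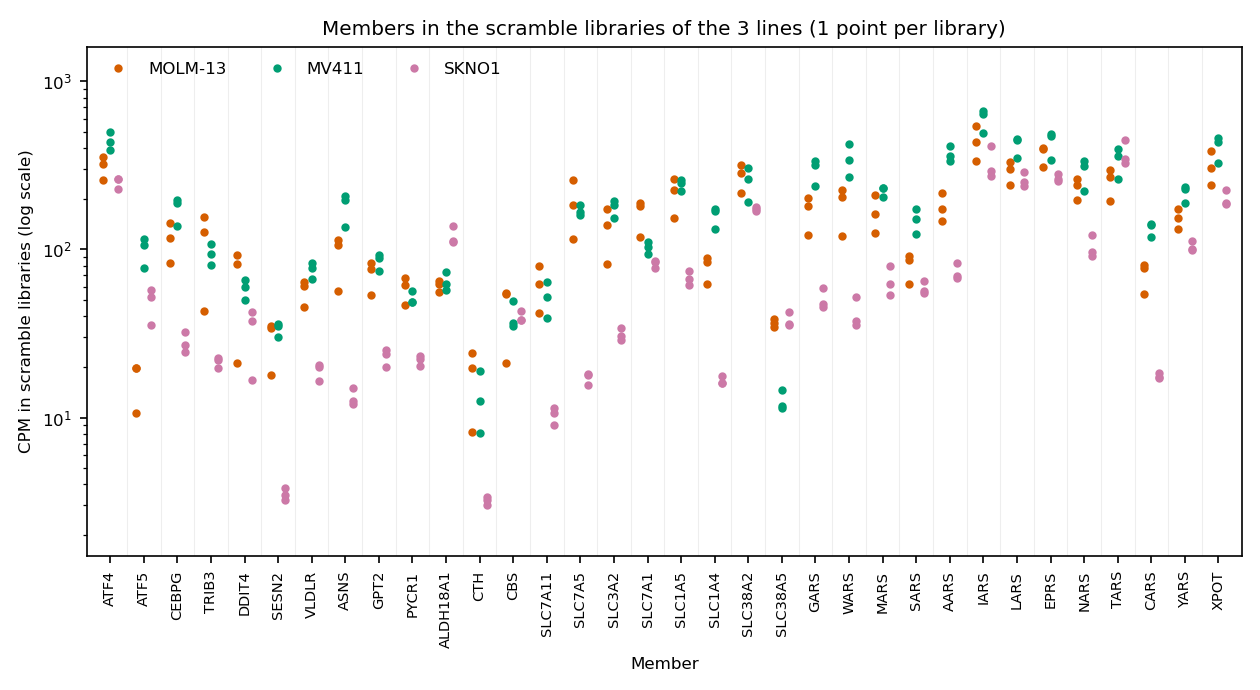
CPM on a log axis of 34 members in the scramble libraries of MOLM-13, MV411 and SKNO1, with 1 point per library and NUPR1, CHAC1 and STC2 left out because SKNO1 was at or near 0. SKNO1 points are the lowest for most genes, and for ALDH18A1 they are the highest.

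Genes of the same pathway outside the 37 were counted from lists of symbols. Over all genes tested, 4.25% fell and 2.13% rose with hairpin 1 in MOLM-13, 6.03% and 3.39% with hairpin 2, 4.13% and 2.37% with hairpin 1 in MV411, 10.2% and 8.38% with hairpin 2, and in SKNO1 0.277% fell with hairpin 1 and 5.69% fell and 5.54% rose with hairpin 2. Of 17 other partners or targets of ATF4, 10 fell and 1 rose with hairpin 1 in MOLM-13, 8 fell and 1 rose with hairpin 2, 3 fell and 1 rose with hairpin 1 in MV411, and 9 fell and 1 rose with hairpin 2. In SKNO1, where 16 were tested, 1 fell with hairpin 1 and 5 with hairpin 2. BCAT1, the cytosolic branched-chain transaminase, averaged 375, 194 and 182 CPM in MOLM-13, MV411 and SKNO1 scramble and 117, 51.2 and 80.2 with hairpin 2, and fell by 1.66 (SE 0.26, edgeR adjusted p = 0.0055), 1.95 (SE 0.37, 0.0044) and 1.20 (SE 0.25, 0.0099). ALDH1L2, a mitochondrial folate enzyme, also fell in all 3 lines with hairpin 2, by 1.61, 1.08 and 1.59 (edgeR adjusted p = 0.047, 0.017 and 0.00056). SLC43A1, a neutral amino acid facilitator, fell in MV411 by 1.55 (SE 0.14, edgeR adjusted p = 0.00019).

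Of the 8 cytosolic synthetases that are not members, 0 and 1 fell with hairpins 1 and 2 in MOLM-13, 1 and 3 in MV411, and 0 and 2 in SKNO1. FARSB, a subunit of the phenylalanyl synthetase, fell with hairpin 2 in all 3 lines, by 0.92, 0.84 and 1.06 (edgeR adjusted p = 0.046, 0.026 and 0.013). Its partner FARSA fell by 0.89 in MV411 (edgeR adjusted p = 0.00097) and 0.65 in SKNO1 (0.032), and VARS, for valine, by 0.62 in MV411 (0.028). Of 3 scaffold genes of the multisynthetase complex, EEF1E1 fell with hairpin 2 in MOLM-13 (by 1.34, edgeR adjusted p = 0.0049) and MV411 (by 1.33, 0.021), while AIMP1 and AIMP2 passed in neither. Of 17 mitochondrial synthetases none fell with hairpin 1 in any line, and 2, 5 and 2 fell with hairpin 2 in MOLM-13, MV411 and SKNO1, beside 6.03%, 10.2% and 5.69% of all genes. MARS2 fell by 0.89 in both MV411 (edgeR adjusted p = 0.0014) and SKNO1 (0.022), and CARS2 fell by 0.51 in MV411 (edgeR adjusted p = 0.013). No difference between these lists and the members was tested.

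Upstream, of the 16 genes for eIF2 kinases, eIF2, eIF2B and the eIF2 phosphatase, 2 fell and 1 rose with hairpin 2 in MOLM-13, and 1 fell and 1 rose in each of MV411 and SKNO1. So few calls are not read as a result for this list, given the shares over all genes. PPP1R15A, the stress-induced phosphatase subunit that reverses eIF2 phosphorylation, averaged 34.9 CPM in MOLM-13 scramble and 60.8 with hairpin 2, and 29.5 and 67.1 in SKNO1. It rose by 0.82 (SE 0.23, edgeR adjusted p = 0.048) and 1.17 (SE 0.22, 0.0063). EIF2B1 fell by 0.66 in MV411 (edgeR adjusted p = 0.0059) and EIF2S2, the beta subunit of eIF2, by 0.96 in MOLM-13 (0.019). Of 12 other amino acid transporters, 1 fell and 2 rose with hairpin 2 in MOLM-13 (11 tested), 1 fell and 3 rose in MV411 (9 tested), and 1 fell and 1 rose in SKNO1 (10 tested). SLC43A2, a large neutral amino acid carrier, rose in all 3 lines, by 1.70 (SE 0.39, edgeR adjusted p = 0.025), 1.74 (SE 0.22, 0.00062) and 2.01 (SE 0.37, 0.0057), from 9.49, 8.32 and 0.459 CPM in scramble to 30.4, 28.2 and 1.87. SLC1A3, a glutamate transporter, rose in MOLM-13 (1.5, edgeR adjusted p = 0.015) and MV411 (1.27, 0.013) and fell in SKNO1 (by 1.18, 0.02). SLC38A1, a glutamine carrier, fell by 1.37 in MOLM-13 (edgeR adjusted p = 0.0092).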

How the data were processed

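Total RNA depleted of ribosomal RNA was made into stranded libraries, per the labels' protocols. The submitters' processing notes name STAR 2.5.3, RSEM and the build GRCh38.p7, and the authors deposited RSEM expected counts per gene, not scaled for depth or length. The strand setting and the annotation release are not given in the sources used here. Of the non-zero values, 30.4% are not whole (tolerance 1e-09), which marks reads shared between genes. Of the members' values, 31.1% are not whole, and 21 members are whole in every library. Totals per library ranged from 25063577 to 53291599.

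Counts were rounded and tested with edgeR 4.0.16 (quasi-likelihood, TMM, filterByExpr with a minimum count of 10 and a minimum total of 15, R 4.3.3), and p-values were corrected over every tested gene (Benjamini-Hochberg). Comparisons within a line were fitted on that line's 9 libraries, scramble libraries of the 3 lines together, and the fit over lines and the interactions on all 27. Means and SD are of CPM. With 3 libraries against 3, an exact permutation test of a single gene cannot go below 0.1 and was not used. The tests were tried on simulated data first.

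Alternatives were DESeq2 1.42.0, its size factors, no filter, leaving out each library of the groups compared, and the replicate number as a block. Same-numbered libraries of different groups deviated together in MV411 (9 of 9 pairs with a correlation over 0.1, from 0.11 to 0.73). The numbers were therefore taken to pair the samples there, which the labels do not state. In MOLM-13 (-0.33 to 0.43) and SKNO1 (-0.19 to 0.54) 5 of 9 pairs were over 0.1. All 3 pairs of MOLM-13 scramble and hairpin 1 were (0.24 to 0.43). Whether the numbers pair samples in MOLM-13 or SKNO1 is not settled.

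The members and lists were chosen with earlier results of these data known. All 37 members may be named. Those given per library passed most often within their role (ties by the smallest p) or, as SESN2, went against it, and STC2, CBS, SLC1A5 and SLC7A11 were added after their values were seen. From each pathway list up to 3 genes with the smallest p in a hairpin 2 comparison are named, and a few genes are not reported here. Promoters are RefSeq windows on GRCh38.p14, and gene positions are from GENCODE 29 on GRCh38.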

Additional observations from a re-analysis of the deposited data

Results flagged for a closer look

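The hairpin 2 effect differed between lines by a test of the difference for 3 members. SLC1A5 was -1.43 (log2) in MOLM-13 relative to SKNO1, and in MV411 relative to SKNO1 SESN2 was -1.36 and SLC38A5 -1.71, with the tests and left-out libraries given above.

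With hairpin 1, 6 members had every library below scramble in MOLM-13 and every library above scramble in SKNO1, beside 2.1% of the 16009 genes tested in both lines, and the difference between the lines was not tested. TRIB3 was at -2.09 in MOLM-13 and 0.44 in SKNO1 on the log2 scale. PYCR1 was at -1.14 in MOLM-13, -0.46 in MV411 and 0.76 in SKNO1. ALDH18A1 was at -0.35 in MOLM-13 and 0.36 in SKNO1, and SLC3A2 at -1.42 and 0.35. SLC1A5 was at -1.75, -0.53 and 0.53 in MOLM-13, MV411 and SKNO1, and SLC38A5 at -1.24, -0.64 and 0.37. None of the 6 SKNO1 values passed the threshold by edgeR. CARM1 mRNA left with hairpin 1 was 19.4% in MOLM-13, 26.2% in MV411 and 42.5% in SKNO1, and its part in these differences was not tested.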

How the results depend on the processing

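No member's call changed direction under any alternative run. Single-gene calls were lost in 1 case with DESeq2, 3 with DESeq2's size factors, 6 without a filter and 12 with the replicate block. Counts of called members were within 1.5 times of those reported except as follows. DESeq2 called 24 for MOLM-13 hairpin 2, 5 for SKNO1 hairpin 1, 1 for SKNO1 knockdown and 2 for the hairpin 2 effect in MOLM-13 against SKNO1. Without a low-count filter the calls were 29 for MOLM-13 hairpin 2, 2 for MOLM-13 hairpin 2 against hairpin 1, 15 for MV411 hairpin 1, 15 for MV411 hairpin 2 against hairpin 1, 4 for SKNO1 hairpin 1 and 1 for SKNO1 knockdown. In the same setting the hairpin 2 effect gave 1 call for MOLM-13 against MV411, 4 for MOLM-13 against SKNO1 and 6 for MV411 against SKNO1. With the replicate block MV411 gave 21 for hairpin 1, 31 for hairpin 2 and 13 for hairpin 2 against hairpin 1, the changed calls being given above. The block gave 3 for SKNO1 hairpin 1 and 2 for MOLM-13 against SKNO1, where a pairing by number is not settled. The cause of these changes was not tested.

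With each library left out in turn, which also leaves fewer samples, calls ranged from 14 to 30 for MOLM-13 knockdown, 0 to 17 for MV411 knockdown, 21 to 29 over the 3 lines, 3 to 29 for MOLM-13 hairpin 1, 1 to 19 for MOLM-13 hairpin 2, 0 to 9 for MV411 hairpin 1, 9 to 25 for MV411 hairpin 2 and 5 to 7 for SKNO1 hairpin 2. They ranged from 4 to 8 and from 8 to 13 for hairpin 2 against hairpin 1 in MV411 and SKNO1, from 0 to 4 and from 1 to 2 for the hairpin 2 effect in MOLM-13 and MV411 against SKNO1, and were 0 for the effect in MOLM-13 against MV411, for SKNO1 knockdown, for SKNO1 hairpin 1 and for the hairpins of MOLM-13. Scramble comparisons gave 9 to 14 for MOLM-13 against MV411, 27 to 34 for MOLM-13 against SKNO1 and 32 to 33 for MV411 against SKNO1. Only libraries of the groups compared were left out, and none of these fits had the replicate block. Few counts limit NUPR1 in all lines and CHAC1 and STC2 in SKNO1. Library totals of SKNO1 (32392863 to 40389063) were not below those of MV411 (25063577 to 39718356).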
